A study of Mus musculus with 24 samples.

Results

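The genes described here build, anchor, cut and sense the hyaluronan-rich matrix that surrounds muscle fibres. They are the large proteoglycans versican (Vcan) and aggrecan (Acan), the link protein Hapln1, the hyaluronan synthases Has1 and Has2, the hyaluronidases Hyal1 and Hyal2 and the hyaluronan receptor Cd44. They were taken by gene symbol, 8 genes in all, and each was read from the array probe set that carries its symbol alone. Of the 8 genes 7 had such a probe set. The 2 probe sets listed for Hyal1 also carry the symbol Naa80, the neighbouring gene on chromosome 9, so no value is given for Hyal1. Of the 7 measured genes 6 passed the filter on low values and were tested among 14499 genes. Hapln1 did not pass and is described by its values alone.

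Transcripts were measured in the plantaris, a calf muscle that extends the ankle, on 24 Affymetrix whole-transcript arrays of mice aged 3 months. The 4 groups of 6 biological replicates were untreated wildtype, overloaded wildtype, untreated Mstn-/- and overloaded Mstn-/- mice, the last 2 groups lacking functional myostatin, a secreted restraint on muscle growth. Overload was produced by removing the soleus and a large part of the gastrocnemius of both legs under pentobarbitone, the untreated mice had no operation, and only 1 plantaris of each mouse was used. Surgery and load therefore differ together between untreated and overloaded groups. Pentobarbitone at 50 mg per kg is listed for all 24 samples, those of the untreated groups included. The sources used here give no strain, sex, structure of the Mstn allele or duration of overload, and nothing beyond the word biological says how the replicates were raised.

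Hyaluronan is a long unsulfated sugar chain that synthases in the plasma membrane extrude directly into the extracellular space. Versican and aggrecan are hyalectans, large core proteins that carry chondroitin sulfate chains and bind hyaluronan at their amino-terminal end, where link protein locks the complex. Hyaluronidases cut the chain, Hyal2 at the cell surface and Hyal1 in lysosomes, and Cd44 binds hyaluronan on fibroblasts, leukocytes and muscle precursor cells. Versican is typical of the provisional matrix of developing and regenerating muscle, whereas aggrecan is the main proteoglycan of cartilage and is also made in compressed parts of tendon.

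Array medians lay between 139 and 147 on the linear intensity scale. The 10 skeletal muscle fibre markers were all detected, with summed intensities from 79200 to 97240 over the 24 arrays. Mstn was 2.51-fold lower in untreated Mstn-/- than in untreated wildtype muscle (limma adjusted p = 2.72e-08), and its overloaded groups did not pass the test (1.11-fold, adjusted p = 0.39). Where the Mstn probes lie relative to the mutation is unknown here, and this gene gives no check of the genotype labels of overloaded arrays. The number of arrays limits precision, and over all tested genes the standard error of a log2 difference had a median of 0.0672. Intensities below are linear, and means, SDs and differences are in log2 units. The detection level named below is a convention and not a measured background, namely the 30th percentile of the mean intensity of probe sets with 1 gene symbol, which was 98.9 or 6.63 in log2.

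Promoter windows are shown for the genes whose transcript levels moved most, Vcan, Acan and Cd44, and for Hapln1, the direct neighbour of Vcan. That of Has1 is shown because its difference between overloaded genotypes had the opposite sign to that of Has2. Each window runs from 250 bases before to 50 bases after the start annotated by RefSeq on GRCm38.p6, and capitals mark matches on either strand to 6 short patterns. The AP-1 pattern searched was TGANTCA. For TEAD factors the letters were GGAATG. A SMAD box was read as CAGACA, and the TATA box as TATAAA. The GC box was GGGCGG, and the NF-kB pattern was GGG and CC with any 5 bases between. The Vcan window lies at chr13:89742463-89742762, minus strand, the Acan window at chr7:79052976-79053275, plus strand, the Cd44 window at chr2:102901616-102901915, minus strand, the Has1 window at chr17:17855139-17855438, minus strand, and the Hapln1 window at chr13:89540386-89540685, plus strand.
Vcan: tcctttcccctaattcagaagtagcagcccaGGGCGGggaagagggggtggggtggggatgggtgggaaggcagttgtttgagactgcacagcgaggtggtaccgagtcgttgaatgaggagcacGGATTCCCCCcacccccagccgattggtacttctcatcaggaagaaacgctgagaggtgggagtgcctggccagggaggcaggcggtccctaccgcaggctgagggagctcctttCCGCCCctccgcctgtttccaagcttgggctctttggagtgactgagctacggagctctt
Acan: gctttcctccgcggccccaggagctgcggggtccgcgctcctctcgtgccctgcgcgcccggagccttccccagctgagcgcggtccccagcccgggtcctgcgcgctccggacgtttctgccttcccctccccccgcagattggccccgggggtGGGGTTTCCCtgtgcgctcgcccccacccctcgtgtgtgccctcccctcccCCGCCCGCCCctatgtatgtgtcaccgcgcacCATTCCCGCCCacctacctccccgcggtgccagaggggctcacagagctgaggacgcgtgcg
Cd44: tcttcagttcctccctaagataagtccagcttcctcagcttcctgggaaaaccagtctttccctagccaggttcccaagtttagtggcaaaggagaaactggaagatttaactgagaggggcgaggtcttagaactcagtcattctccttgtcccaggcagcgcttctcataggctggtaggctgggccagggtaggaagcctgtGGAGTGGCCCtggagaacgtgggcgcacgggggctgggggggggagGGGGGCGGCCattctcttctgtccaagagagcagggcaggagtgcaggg
Has1: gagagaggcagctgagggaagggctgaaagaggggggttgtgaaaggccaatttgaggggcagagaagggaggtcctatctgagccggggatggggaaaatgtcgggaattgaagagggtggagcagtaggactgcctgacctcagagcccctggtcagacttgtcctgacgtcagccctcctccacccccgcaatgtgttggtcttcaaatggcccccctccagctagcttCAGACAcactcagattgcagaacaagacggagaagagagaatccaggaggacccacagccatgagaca
Hapln1: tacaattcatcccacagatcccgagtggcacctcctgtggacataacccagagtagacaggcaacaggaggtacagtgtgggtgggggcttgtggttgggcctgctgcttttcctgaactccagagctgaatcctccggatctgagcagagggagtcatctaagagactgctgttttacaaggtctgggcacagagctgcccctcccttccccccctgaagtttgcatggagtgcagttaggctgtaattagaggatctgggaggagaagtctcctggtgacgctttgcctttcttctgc

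The windows differed in base composition and in these letters. The Acan window was 74% G or C and held 3 GC boxes, 1 NF-kB pattern and 1 TEAD pattern, the last sharing its final C with a GC box. The Vcan window was 61% G or C and held 2 GC boxes and 1 NF-kB pattern. The Cd44 window was 58% G or C and held 2 NF-kB patterns, 1 of them overlapping its single GC box. The Has1 window, at 57% G or C, had 1 SMAD box and none of the other patterns, and the Hapln1 window had none of the 6. Over all 32851 windows of the RefSeq table, several of which can belong to 1 gene, the GC box was present in 35.7%, the NF-kB pattern in 50.8%, the SMAD box in 21%, TEAD in 14.7%, TATA in 13.6% and AP-1 in 7.81%. These are letter matches and not measured binding sites. Windows of 7 of the 8 genes were in the table. Has2 had none, so its letters could not be set beside those of Has1. By gene order on GRCm38.p6, Hapln1 and Vcan are adjacent protein-coding genes on chromosome 13, Acan lies next to the link protein gene Hapln3 on chromosome 7, and Hyal2 lies next to Hyal1 on chromosome 9.

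**Figure D1:**
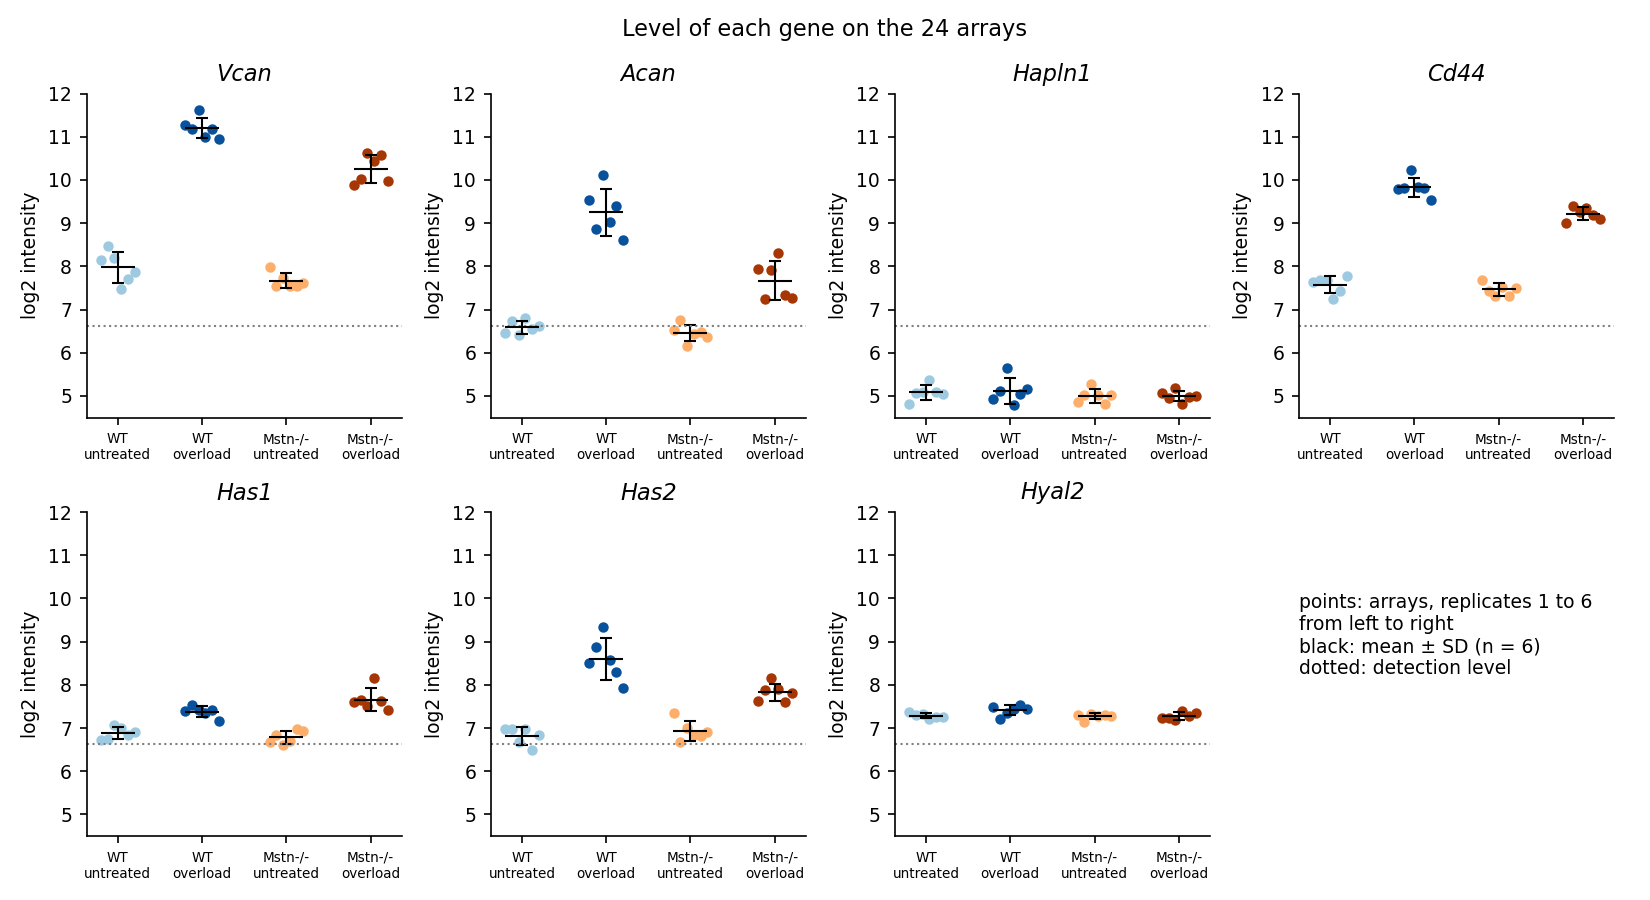
Log2 intensity of the 7 measured genes (1 panel each, same vertical axis) on the 24 arrays by group. Points are arrays, black bars are the mean and SD of 6 arrays, and the dotted line is the detection level of 6.63. Vcan, Acan, Cd44, Has1 and Has2 lie higher on overloaded arrays, and Hapln1 lies below the detection level on every array.

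In overloaded wildtype muscle the proteoglycans, the receptor and both synthases rose, and the hyaluronidase Hyal2 changed least. Versican rose 9.35-fold, aggrecan 6.33-fold, Cd44 4.77-fold, Has2 3.41-fold and Has1 1.42-fold, whereas Hyal2 rose 1.09-fold. All 6 tested genes passed as higher, in a comparison where 30.3% of all tested genes did (35.6% were lower, 65.9% in either direction). Their median difference was 2.01, against -0.06 over all tested genes. Acan passed the filter only through its overloaded groups, so this count and median are descriptive. In 5 of the 6 genes the overloaded and untreated wildtype arrays did not overlap, which held for 43% of all tested genes.

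Vcan intensity in untreated wildtype muscle ranged from 177 to 354 with a median of 258, and under overload from 1970 to 3122 with a median of 2332. The lowest overloaded array was thus several times brighter than the highest untreated one. The difference was 3.22 ± 0.15 (SE, n = 6 per group, limma adjusted p = 1.82e-15), the 13th largest rise of the 14499 genes. Versican transcripts in bulk RNA can rise because more cells make them or because each cell makes more, and these arrays cannot tell the possibilities apart for this or any other gene below.

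Acan was at the detection level in untreated wildtype muscle, from 85.5 to 111 with a median of 96.1, and 2 of 6 arrays were above that level. Under overload it reached 390 to 1115 with a median of 590. The difference was 2.66 ± 0.19 (adjusted p = 5.6e-12), and since the untreated mean lies below the detection level its size is uncertain. Acan also had the widest spread of the 7 genes among overloaded wildtype arrays, with an SD of 0.54.

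Hapln1 showed no counterpart to these rises. Its intensity stayed between 27.7 and 50.15 on the wildtype arrays and between 28.2 and 39.02 on the Mstn-/- arrays, and no array of any group exceeded the detection level. Group means were 5.08 ± 0.18 (SD, n = 6) in untreated and 5.11 ± 0.29 in overloaded wildtype, and 5.00 ± 0.16 and 5.00 ± 0.12 in untreated and overloaded Mstn-/- muscle. The Hapln1 probe set thus gave no signal above the level used, beside a neighbouring gene, Vcan, that was among the most raised.

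The synthases differed in the measured size of their rise. Their untreated wildtype means were close to the detection level of 6.63, at 6.82 for Has2 and 6.88 for Has1, so these sizes are uncertain. Has2, which encodes the main synthase of mesenchymal tissue in development, ranged from 89.5 to 127 in untreated wildtype muscle and from 243 to 645 under overload, with medians of 120 and 374. That difference was 1.77 ± 0.16 (adjusted p = 2.68e-10). Has1 ranged from 105 to 134 without and from 143 to 186 with overload, with medians of 117 and 170. The Has1 difference was 0.50 ± 0.10 (adjusted p = 4.71e-05), and the arrays of the 2 groups did not overlap although the shift was small.

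The receptor rose with less spread than Acan, with an SD of 0.22 among overloaded wildtype arrays. Cd44 ranged from 152 to 219 in untreated wildtype muscle and from 740 to 1196 under overload, with medians of 202 and 894. The difference was 2.25 ± 0.10 (adjusted p = 4.76e-16). Hyal2, the cell-surface hyaluronidase, ranged from 148 to 166 without and from 149 to 184 with overload, so the groups overlapped, and the difference of 0.12 ± 0.05 (adjusted p = 0.0357) was lost when arrays were scaled to the same median (adjusted p = 0.283), after quantile normalization (adjusted p = 0.084) and with the 2 groups fitted alone (adjusted p = 0.074). Leaving out replicate 1, 4, 5 or 6 of the overloaded or replicate 4, 5 or 6 of the untreated wildtype group also ended that call (difference 0.10 to 0.12).

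One overloaded wildtype array stood highest and another lowest in several of these genes. Replicate 3 was the highest of its group for Vcan (3122), Acan (1115), Has2 (645) and Cd44 (1196), and replicate 6 was the lowest for Vcan (1970), Acan (390), Has2 (243), Cd44 (740) and Has1 (143). Replicate 3 also had the highest summed intensity of the tenocyte (26910), macrophage (19280), progenitor (35530) and cartilage (2760) marker lists in that group. Without replicate 3 the overload differences were 3.14 for Vcan, 2.49 for Acan, 1.62 for Has2 and 2.18 for Cd44, and without replicate 6 they were 3.28, 2.79, 1.90 and 2.31, all past the threshold.

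Mstn-/- muscle responded to overload in the same genes except Hyal2. Versican rose 6.01-fold, Cd44 3.37-fold, Acan 2.32-fold, Has2 1.86-fold and Has1 1.83-fold, and Hyal2 did not pass the test. Thus 5 of the 6 tested genes were higher, against 27.1% of all tested genes (33.5% were lower, 60.6% in either direction), and the untreated and overloaded arrays did not overlap in 5 of 6, against 39.9%. Over all tested genes 3932 were higher and 4857 lower, and with arrays scaled to the same median 3312 were higher and 6681 lower, while the 5 calls here stayed. The median difference of the 6 genes was 1.05, and of all tested genes -0.06. Here too Acan had passed the filter only through its overloaded groups, so the count and the median are descriptive.

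In untreated Mstn-/- muscle Vcan ranged from 186 to 255 with a median of 192, and under overload from 939 to 1587 with a median of 1198 (difference 2.59 ± 0.15, adjusted p = 3.11e-13). Cd44 ranged from 160 to 207 and from 514 to 675, with medians of 177 and 597 (difference 1.75 ± 0.10, adjusted p = 1.45e-13). In both genes every overloaded array was brighter than every untreated one. Acan went from 71.7 to 108 in untreated muscle, where 1 of 6 arrays exceeded the detection level, to 151 to 318 under overload (difference 1.21 ± 0.19, adjusted p = 6.83e-06). Its size is uncertain for the same reason as in wildtype muscle.

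Both synthase genes rose by nearly the same factor in Mstn-/- muscle. Their untreated means, 6.93 for Has2 and 6.79 for Has1, were again close to the detection level, so the sizes of these rises are uncertain. Has2 ranged from 102 to 163 without and from 194 to 284 with overload, with medians of 118 and 230 (difference 0.89 ± 0.16, adjusted p = 2.79e-05). Has1 ranged from 97.1 to 125 and from 170 to 286, with medians of 110 and 196 (difference 0.87 ± 0.10, adjusted p = 1.98e-08). Neither gene's overloaded arrays overlapped its untreated ones. Hyal2 ranged from 142 to 161 without and from 147 to 169 with overload, and the interval of its difference was -0.10 to 0.11. The wildtype difference of 0.12 lies just above that interval, but the responses themselves were not told apart by the interaction test. The sign of that difference, 0.004, turned under quantile normalization (-0.02), scaling to the same median (-0.06) and array weights (-0.01).

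**Figure D2:**
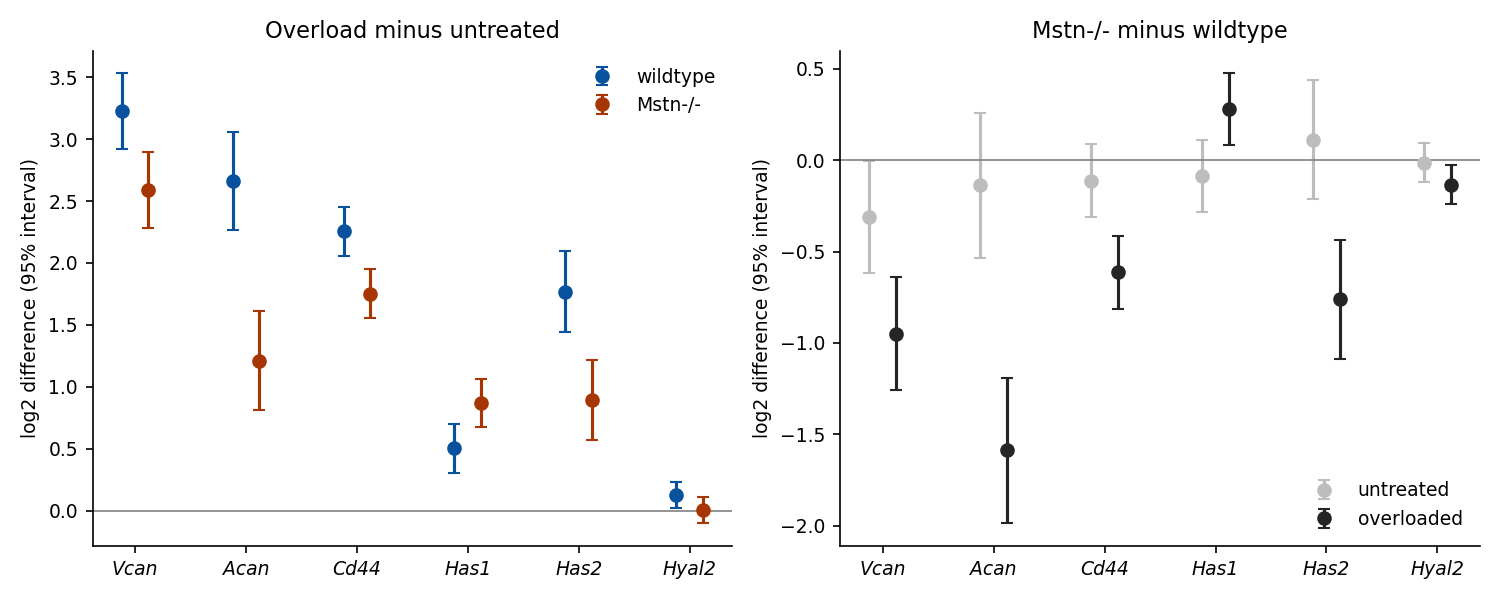
Log2 differences with 95% intervals for the 6 tested genes, overload minus untreated in each genotype (left) and Mstn-/- minus wildtype in each condition (right). Has1 is the single gene whose overloaded Mstn-/- level lies above the wildtype level, by 0.28, and intervals of untreated differences other than that of Vcan include 0.

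Without overload no difference between the genotypes passed the test in these genes. None of the 6 tested genes passed the limma test, against 21.3% of all tested genes (11.1% higher, 10.2% lower), and groups overlapped in all 6, whereas they did not in 12% of all tested genes. By unadjusted p 1 of them, Vcan, was below 0.05 (0.0474). Vcan was 0.31 ± 0.15 lower in Mstn-/- muscle (adjusted p = 0.147, interval -0.62 to -0.00), and leaving out replicate 4 of untreated wildtype made that difference -0.41 with an adjusted p of 0.047. The other intervals were -0.54 to 0.26 for Acan, -0.31 to 0.09 for Cd44, -0.28 to 0.11 for Has1, -0.21 to 0.44 for Has2 and -0.12 to 0.09 for Hyal2. The widest of these intervals belonged to Acan and Has2.

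Under overload all 6 tested genes differed between the genotypes by the test, and the differences of Has1 and Has2 had opposite signs. Acan was 3.01-fold, Vcan 1.93-fold, Has2 1.70-fold, Cd44 1.53-fold and Hyal2 1.10-fold lower in Mstn-/- muscle, and Has1 was 1.21-fold higher. Thus 5 of the 6 tested genes were lower, against 19% of all tested genes, and 1 was higher, against 17.5% (36.5% in either direction). The arrays of the genotypes did not overlap for Vcan, Acan and Cd44, 3 of 6 genes against 15.5% of all tested genes. As Acan passed the filter only through its overloaded groups, these counts are descriptive.

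Overloaded Vcan lay between 939 and 1587 in Mstn-/- and between 1970 and 3122 in wildtype muscle (difference -0.95 ± 0.15, adjusted p = 2.07e-05). Overloaded Acan lay between 151 and 318 against 390 and 1115 (difference -1.59 ± 0.19, adjusted p = 6.82e-07), and both groups were above the detection level on every array. Overloaded Cd44 lay between 514 and 675 against 740 and 1196 (difference -0.61 ± 0.10, adjusted p = 2.03e-05). In all 3 genes the highest Mstn-/- array was dimmer than the lowest wildtype array.

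Overloaded Has2 lay between 194 and 284 in Mstn-/- and between 243 and 645 in wildtype muscle, a difference of -0.76 ± 0.16 (adjusted p = 0.000477). The groups overlapped through replicate 6 of wildtype, and without it the difference was -0.89. Overloaded Has1 lay between 170 and 286 in Mstn-/- and between 143 and 186 in wildtype muscle, a difference of 0.28 ± 0.10 (adjusted p = 0.0229). The groups overlapped, and the call was lost without replicate 4 of Mstn-/-, the brightest array (difference 0.18, adjusted p = 0.0698), or without replicate 6 of wildtype (difference 0.24, adjusted p = 0.0647). The Hyal2 difference of -0.13 ± 0.05 (adjusted p = 0.0432) was lost under quantile normalization (adjusted p = 0.068), scaling to the same median (adjusted p = 0.106), no filter (adjusted p = 0.0616), a fit of the 2 groups alone (adjusted p = 0.102), and without replicate 1, 2, 3 or 5 of Mstn-/- or 1, 4, 5 or 6 of wildtype (differences down to -0.11).

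The difference between the overload responses was tested directly as an interaction. Acan, Has2, Vcan and Cd44 rose less in Mstn-/- than in wildtype muscle, 4 of the 6 tested genes lower against 8.44% of all tested genes (8.92% were higher, 17.4% in either direction). Because Acan passed the filter only through its overloaded groups, this count is descriptive. The Acan rise was smaller by 1.45 ± 0.27 (limma adjusted p = 0.000607), a 2.73-fold difference in response whose size is uncertain because both untreated means lie below the detection level. The Has2 rise was smaller by 0.87 ± 0.22 (adjusted p = 0.00764), a size that is also uncertain because both untreated means lie close to that level. The Cd44 rise was smaller by 0.50 ± 0.14 (adjusted p = 0.0115). The calls of Acan, Has2 and Cd44 held under every alternative run.

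For Vcan the rise was smaller by 0.64 ± 0.21 (adjusted p = 0.038), close to the threshold. It missed the threshold with no filter on low values (adjusted p = 0.0501) and when 1 of 10 arrays was left out, namely replicate 1, 2 or 6 of overloaded Mstn-/-, 1 or 3 of untreated Mstn-/-, 1 or 3 of overloaded wildtype, or 4, 5 or 6 of untreated wildtype (difference -0.54 to -0.62, adjusted p = 0.0534 to 0.0732). Has1 moved the other way, its rise being larger by 0.37 ± 0.13 in Mstn-/- muscle, but it did not pass (adjusted p = 0.0626). It passed without replicate 3 or 6 of overloaded Mstn-/-, replicate 5 of untreated Mstn-/- or replicate 2 of overloaded wildtype (adjusted p = 0.0367 to 0.0487). The Hyal2 responses were not told apart (-0.12 ± 0.07, adjusted p = 0.284).

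**Figure D3:**
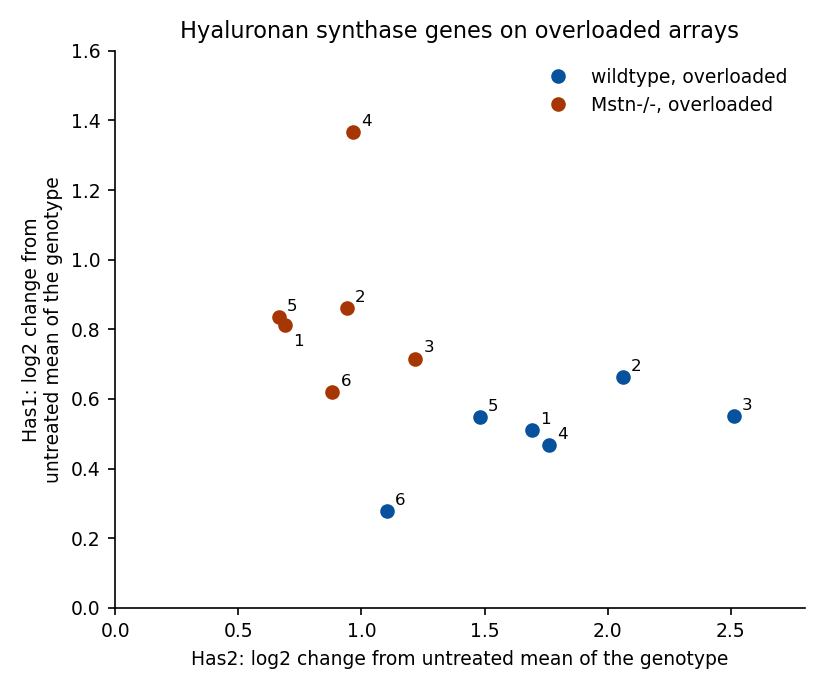
Change of Has1 against change of Has2 on the 12 overloaded arrays, each as log2 intensity minus the untreated mean of its genotype, with replicate numbers beside the points. Most Mstn-/- arrays lie to the upper left of the wildtype arrays, and replicate 4 of Mstn-/- is the highest for Has1.

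Ranked by level, overloaded wildtype was highest, overloaded Mstn-/- next and the untreated groups lowest for Vcan, Acan, Has2 and Cd44. The untreated groups did not differ by the test in any of them. For Has1 overloaded Mstn-/- ranked first, followed by overloaded wildtype with overlapping arrays, and then by the untreated groups. For Hyal2 overloaded wildtype ranked first and the other 3 group means lay between 7.27 and 7.29.

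Genes whose profile over the 24 arrays lay closest to each of these are listed as a description, by the root mean square difference of log2 values centred on each gene's own mean. Closest to Vcan were Col8a1 (0.171), Fstl1 (0.231) and P4ha3 (0.236), a short-chain collagen, a secreted follistatin-like glycoprotein and a collagen prolyl hydroxylase subunit. Closest to Cd44 were Il13ra1 (0.139), an interleukin receptor chain, the membrane-repair protein gene Myof (0.142) and the aminopeptidase Anpep (0.159). Closest to Acan were the matrix genes Spon1 (0.338) and Fbn2 (0.348) and the receptor Lgr5 (0.388). This measure grows with a gene's own spread, and the profiles of Vcan, Acan, Cd44, Has2 and Has1 had SDs of 1.52, 1.17, 1.04, 0.77 and 0.393.

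The synthase genes had different nearest profiles. Those of Has2 were the myeloid receptors Tlr1 (0.222) and Msr1 (0.237) and the gene Sertad4 (0.242). Those of Has1 were the versican-cleaving protease Adamts9 (0.16), the kinase Prkch (0.163) and Smim3 (0.18). Hyal2, whose own profile had an SD of only 0.0938, was nearest to Ubap2l (0.0759), Smarca4 (0.0761) and Flii (0.0784).

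Other genes of the pathway were taken from lists of enzymes, binding proteins and proteases, none of which includes the 8 genes. Chondroitin sulfate chains are what the hyalectans carry, and of 22 genes for their assembly 19 were tested. In wildtype muscle 14 of 19 rose under overload and 1 fell, with a median difference of 0.73, where 30.3% of all tested genes rose and 35.6% fell. The polymerising enzyme Chsy1 rose 2.92-fold (adjusted p = 4.9e-15) and the epimerase-like gene Dsel 3.14-fold (adjusted p = 1.47e-14, from an untreated mean below the detection level), and the xylose kinase Fam20b fell 1.14-fold (adjusted p = 0.00301). In Mstn-/- muscle 14 rose and 3 fell, with a median of 0.40, where 27.1% of all tested genes rose and 33.5% fell. There Chsy1 rose 2.04-fold and the dermatan sulfotransferase Chst14 1.81-fold, and Fam20b and the linker glucuronyltransferase B3gat3 fell 1.28-fold and 1.24-fold.

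Transcripts of chain assembly genes also differed between genotypes under overload. Of 19 genes 12 were lower in overloaded Mstn-/- muscle and none was higher, against 19% lower and 17.5% higher of all tested genes. Among the 12 were Chpf (1.42-fold, adjusted p = 3.99e-06) and Chsy1 (1.43-fold, adjusted p = 9.16e-06). The interaction called 8 of 19 genes, each with a smaller rise in Mstn-/- muscle, led by Dsel (adjusted p = 0.000552) and Chsy1 (adjusted p = 0.00148). Over all tested genes it called 8.44% as lower and 8.92% as higher. Without overload 2 of the 19 genes were higher and 1 lower, against 11.1% and 10.2% of all tested genes. The lower gene was the chain-starting xylosyltransferase Xylt1 (1.34-fold), and Fam20b was 1.13-fold and Dsel 1.19-fold higher.

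Genes for proteases that cut versican and aggrecan, and for an inhibitor, differed in both directions between the overload responses of the genotypes. Of 8 genes tested, 7 ADAMTS proteases and the inhibitor Timp3, 6 rose in each genotype and none fell. Of all tested genes 30.3% rose in wildtype and 27.1% in Mstn-/- muscle. In wildtype muscle the aggrecanase Adamts4 rose 2.20-fold (adjusted p = 5.75e-13) and Adamts15 2.20-fold (adjusted p = 2.74e-11). In Mstn-/- muscle Adamts9 rose 1.77-fold (adjusted p = 1.27e-10) and Adamts1 1.93-fold (adjusted p = 7.8e-09). By the interaction 3 genes rose less in Mstn-/- muscle, with Adamts4 smaller by 0.90 ± 0.10 (adjusted p = 2.25e-06) and the aggrecanase Adamts5 by 0.78 ± 0.14 (adjusted p = 0.000471). The response was larger there for the protease gene Adamts20 by 0.55 ± 0.15 (adjusted p = 0.0122) and for Timp3 by 0.55 ± 0.11 (adjusted p = 0.00117). Over all tested genes 8.44% were called lower and 8.92% higher. Timp3 did not pass in wildtype muscle (0.04, adjusted p = 0.63) or between overloaded genotypes (adjusted p = 0.0725). Without overload Timp3 was 1.29-fold and Adamts8 1.18-fold lower in Mstn-/- muscle, and Adamts5 1.33-fold higher.

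**Figure D4:**
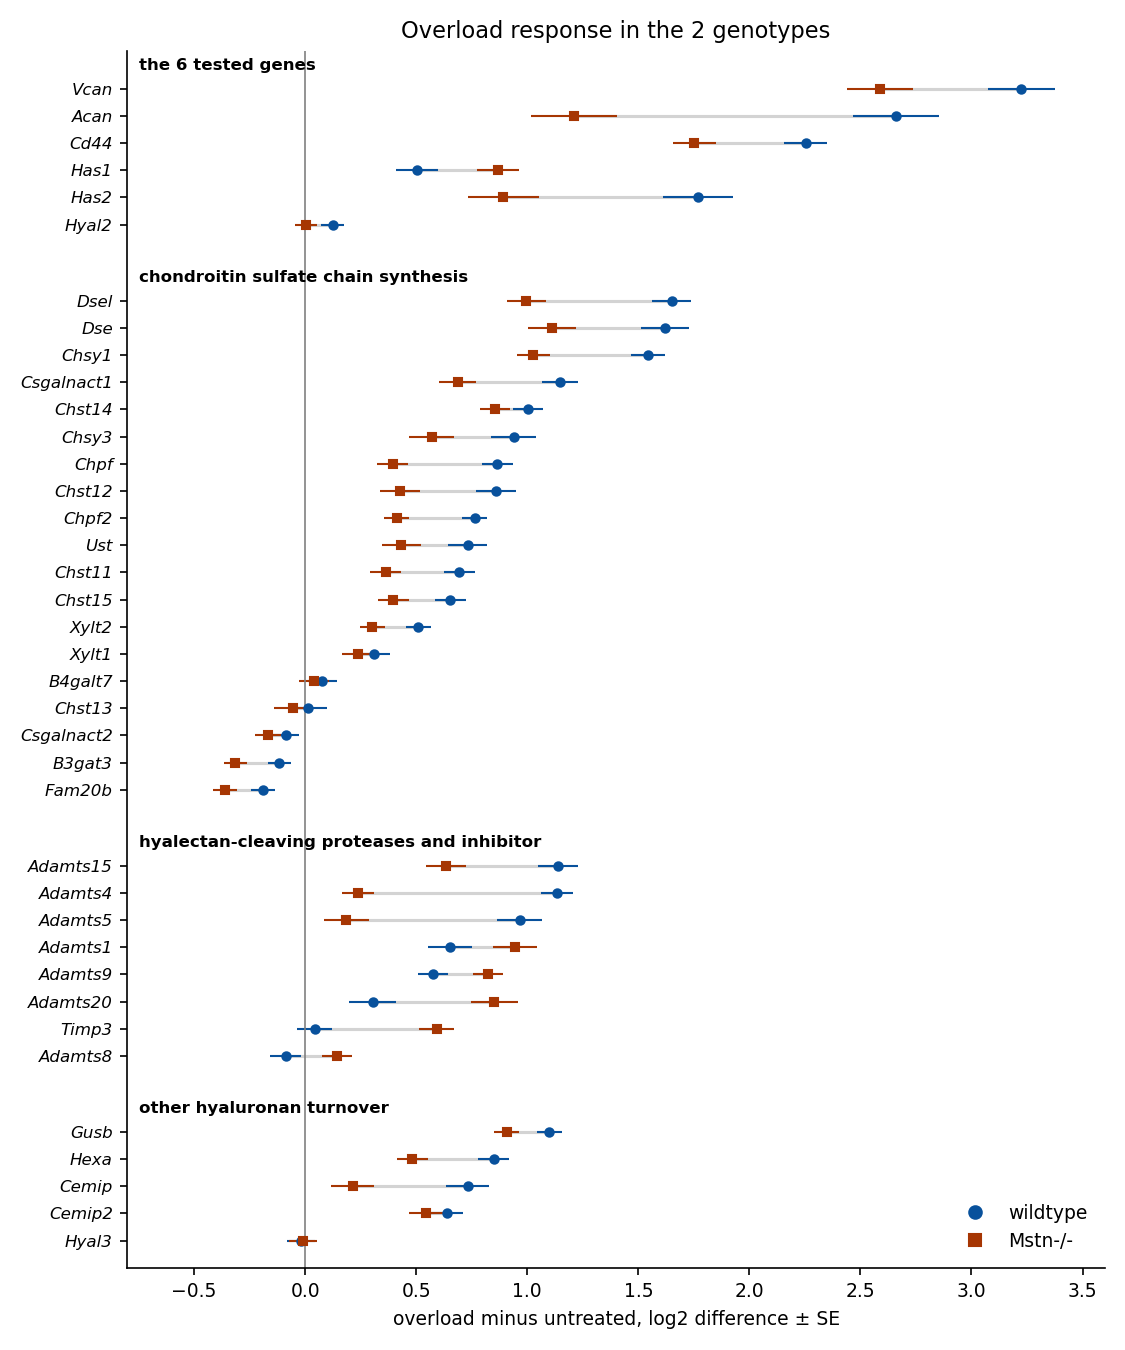
Overload minus untreated (log2 difference ± SE) in wildtype (circles) and Mstn-/- muscle (squares) for the 6 tested genes and for the tested genes of 3 pathway lists. Most chondroitin sulfate genes lie further right in wildtype muscle, whereas Has1, Adamts1, Adamts8, Adamts9, Adamts20 and Timp3 lie further right in Mstn-/- muscle.

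Enzymes that supply the sugar nucleotides for hyaluronan changed unevenly. In wildtype muscle 4 of 7 rose and 1 fell, against 30.3% and 35.6% of all tested genes. The UDP-glucose dehydrogenase Ugdh rose 2.73-fold (adjusted p = 2.24e-11) and the phosphoacetylglucosamine mutase Pgm3 1.41-fold, and the UDP-glucose pyrophosphorylase Ugp2 fell 1.59-fold. In Mstn-/- muscle 3 of 7 rose and 1 fell, against 27.1% and 33.5% of all tested genes, with Ugdh up 2.74-fold, Pgm3 up 1.28-fold and Ugp2 down 1.34-fold. The Ugdh responses differed by 0.01 ± 0.16. Gnpnat1, an acetyltransferase of the same route, was the single gene of the 7 called in the interaction (smaller by 0.42 ± 0.14, adjusted p = 0.0386), against 17.4% of all tested genes.

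Hyaluronan degradation beyond Hyal2 was read from 5 tested genes of a list of 8. In wildtype muscle 4 of the 5 rose, against 30.3% of all tested genes. The lysosomal glucuronidase Gusb (2.14-fold, adjusted p = 1.13e-14) and the hexosaminidase subunit Hexa (1.80-fold, adjusted p = 4.76e-11) had the smallest p. In Mstn-/- muscle 3 of the 5 rose, against 27.1% of all tested genes, with Gusb up 1.88-fold and Cemip2 1.46-fold. The hyaluronan depolymerisation factor Cemip rose 1.66-fold in wildtype muscle and was 1.16-fold higher in Mstn-/- muscle without passing (adjusted p = 0.0585), and its responses differed by 0.52 ± 0.14 (adjusted p = 0.00938). Both untreated Cemip means lie below the detection level. Cemip thus passed the filter only through its overloaded groups, so the counts of this list are descriptive. Hyal3, a further hyaluronidase named here as a relative, differed by -0.02 ± 0.06 and -0.01 in wildtype and Mstn-/- muscle, and Has3 and Hyal4 stayed below the detection level in every group.

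Among 16 tested genes of 20 for hyaluronan-binding proteins and receptors, 7 rose and 4 fell in wildtype muscle and 6 rose and 3 fell in Mstn-/- muscle. Of all tested genes 30.3% rose and 35.6% fell in wildtype muscle, and 27.1% and 33.5% in Mstn-/- muscle. The scavenger receptor Stab1 rose 3.32-fold and 2.46-fold and the receptor layilin (Layn) 2.62-fold and 2.14-fold, in wildtype and Mstn-/- muscle respectively. The endocytic receptor Stab2 fell 1.24-fold and 1.18-fold, and the nervous system hyalectan Ncan 1.22-fold and 1.20-fold. Tnfaip6, which transfers heavy chains onto hyaluronan and was picked after its values were seen, rose 4.10-fold and 3.25-fold from a wildtype level below detection. In the interaction Stab1 (smaller by 0.43 ± 0.09, adjusted p = 0.00166) and Tlr4 (smaller by 0.54 ± 0.16, adjusted p = 0.0188) were called, 2 of 16 genes against 17.4% of all tested genes. Of the link protein relatives, Hapln2 and Hapln3, named here for that relation, fell by 0.22 (adjusted p = 0.022) and 0.21 (adjusted p = 0.0129) in wildtype muscle, the overloaded mean of Hapln3 lying below the detection level. In Mstn-/- muscle their differences were -0.18 (adjusted p = 0.0527) and -0.03 (adjusted p = 0.765), and Hapln4 did not pass the filter.

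Cd44 is tied to the cell cortex by linker proteins, and 5 of these were tested. Moesin (Msn) rose 2.69-fold in wildtype and 2.54-fold in Mstn-/- muscle, and ezrin (Ezr) 1.41-fold and 1.32-fold. Radixin (Rdx) fell 1.37-fold and 1.38-fold and ankyrin G (Ank3) 1.53-fold and 1.65-fold. The interaction called 1 of the 5, against 17.4% of all tested genes. This was Ank2, whose change was more positive in Mstn-/- muscle by 0.30 ± 0.06 (adjusted p = 0.00177).

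Markers of cells that can make these products also differed between the groups, and their part in the results was not tested. Over all tested genes 30.3% rose and 35.6% fell in wildtype muscle, and 27.1% and 33.5% in Mstn-/- muscle. Of 10 macrophage markers 9 rose in each genotype and 1, Cd163, fell in Mstn-/- muscle (1.36-fold, adjusted p = 0.000313). Their summed intensity ranged from 2566 to 3547 in untreated and 13400 to 19280 in overloaded wildtype, and from 3865 to 4936 and 9216 to 17040 in Mstn-/- muscle. Of 9 measured fibro-adipogenic progenitor markers 7 and 6 rose and 1, Gsn, fell in each genotype, with sums of 14790 to 19270, 29510 to 35530, 16850 to 20930 and 23330 to 28060 in the same order of groups. Of 7 tenocyte markers 6 rose in each genotype and 1, Chad, fell in wildtype muscle, with sums of 7530 to 13560, 21230 to 26910, 6647 to 9680 and 14460 to 18250. Under overload the progenitor and tenocyte sums did not overlap between genotypes, and the macrophage sums did. By single genes 3 of 10 macrophage, 5 of 9 progenitor and 6 of 7 tenocyte markers were lower in overloaded Mstn-/- muscle. None was higher, against 19% lower and 17.5% higher of all tested genes. The interaction called 6 macrophage, 4 progenitor and 1 tenocyte markers with a lower response in Mstn-/- muscle. It called none with a higher one, against 8.44% lower and 8.92% higher of all tested genes. Without overload 11.1% of all tested genes were higher and 10.2% lower in Mstn-/- muscle. There 5 of 10 macrophage markers were higher and none lower, and the macrophage sums did not overlap. Of 9 progenitor markers 3 were higher and none lower, and the progenitor sums overlapped. Of 7 tenocyte markers 5 were lower and none higher, and the tenocyte sums overlapped.

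Cartilage markers were read because aggrecan is the main proteoglycan of cartilage, and a cartilage source of Acan was not tested. Of 6 tested cartilage genes 4 rose in wildtype muscle, and 3 rose and 1, Col9a1, fell in Mstn-/- muscle. Shares over all tested genes, for these counts and those below, were 30.3% higher and 35.6% lower in wildtype muscle. The shares in Mstn-/- muscle were 27.1% and 33.5%. Col2a1 was up 1.39-fold and 1.26-fold and Comp, which tendon also makes, 2.67-fold and 1.98-fold (both picked after their values were seen). Col11a2 did not pass in either genotype (adjusted p = 0.0769 and 0.716). Summed cartilage intensity was 1408 to 1700 in untreated and 2091 to 2760 in overloaded wildtype, and 1360 to 1465 and 1586 to 1841 in Mstn-/- muscle. The cartilage markers Matn1 and Cnmd had means below the detection level in every group and were not tested. The same held for the lymphocyte and neutrophil markers Cd3d, Ms4a1, S100a8, Ly6g and Retnlg. The S100a8 mean was 5.67 in untreated and 6.53 in overloaded wildtype muscle (SD 0.705 under overload), and those arrays did not overlap. In Mstn-/- muscle its means were 5.83 and 6.2, with overlap. Of the 3 lymphocyte markers tested 2 rose in each genotype, and Cd8a did not pass. In wildtype and Mstn-/- muscle Cd4 rose 1.70-fold and 1.73-fold and Cd3e 1.15-fold and 1.18-fold. Of the 2 neutrophil markers tested Csf3r rose 1.72-fold and 1.73-fold, and S100a9 did not pass. Cd4 and Csf3r passed the filter only through their overloaded groups. The lymphocyte and neutrophil counts are therefore descriptive, and the sizes of the Cd4 and Csf3r rises are uncertain. Of 4 tested proliferation genes all 4 rose in each genotype, with medians of 3.56-fold and 2.95-fold. Among them Top2a and Ccna2 passed the filter only through their overloaded groups. That count is therefore descriptive, and the size of the medians is uncertain.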

How the data were processed

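Total RNA of 1 plantaris per mouse was hybridised to 1 array each, after rRNA removal and random priming of 1000 ng, per the labels' protocols. The deposited table holds intensity values on a linear scale (4.72 to 25588.9) for 34760 probe sets, which the authors summarised with RMA, per the submitters' processing notes (version not stated there). A log2 scale had been assumed for the table, so log2 was taken here, without a pseudocount. RMA usually includes quantile normalization, which would hide a shift shared by most genes.

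Of the probe sets 21640 carried 1 gene symbol, 1321 several and 11799 none. Each gene was read from its brightest 1-symbol probe set (19937 genes), and genes with a group mean above the detection level were kept (14499). One model over the 24 arrays (limma 3.58.1, R 4.3.3, 20 residual degrees of freedom) gave 5 comparisons, with Benjamini-Hochberg adjustment over all tested genes at 0.05, and was tested on simulated data. No 2 arrays shared over 0.0201% of values, and p-values measure the spread between arrays. The 8 genes, the lists and the tests were chosen with earlier results of these data known. Named genes of a list are those past the threshold with the smallest adjusted p, at most 2 higher and 2 lower, unless stated otherwise. Alternatives were other normalizations, filters, variance models and weights, the mean of probe sets, 2 groups alone, a replicate block and each array left out. Replicate numbers did not pair the arrays.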

Additional observations from a re-analysis of the deposited data

Results flagged for a closer look

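Within groups of 6 arrays, 2 of 28 checks of the 7 measured genes found an array far from the others, the gap to its neighbour divided by the range of the group exceeding Dixon's critical value for 6 samples, which chance does in about 1 in 20 groups. For Has1 the highest array was replicate 4 of overloaded Mstn-/- muscle (0.679), the array without which the difference between overloaded genotypes did not pass. For Hyal2 the lowest array was replicate 2 of untreated Mstn-/- muscle (0.739).

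The overload response differed between genotypes by the interaction test in 4 genes. In log2 units the response of Mstn-/- muscle minus that of wildtype muscle was -1.45 for Acan, -0.87 for Has2, -0.64 for Vcan and -0.50 for Cd44.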

How the results depend on the processing

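Every difference of Acan, Has2 and Cd44 kept its direction and its side of the threshold under all alternatives run, and of the results for single genes 642 were unchanged, 35 lost and 5 gained a call and 9 changed sign. All 9 changes of sign were in Hyal2 and none of those differences was called. Its overload difference in Mstn-/- muscle became -0.02 under quantile normalization (-0.0194), -0.0581 with arrays shifted to the same median and -0.0067 with array weights, and ranged from -0.0215 to 0.0203 with 1 array left out. Its difference between untreated genotypes became 0.0103 after the shift to the same median and ranged from -0.0284 to 0.0123 with 1 array left out. The cause was not tested. The number of the 6 genes called between untreated genotypes was 0 to 1 with 1 array left out. The shift to the same median moved the split of untreated genotypes from 1616 higher and 1475 lower to 1838 and 1114, and that of wildtype overload from 4396 and 5164 to 3811 and 6626. Replicate numbers did not pair the arrays (9 of 36 same-numbered pairs had r over 0.1, and 4 of 24 arrays correlated best with their own number). With the replicate block the counts of the 6 genes called were 6, 5, 0, 6 and 4 in the 5 comparisons, as without it, and 9512, 8688, 3004, 5219 and 2440 of all tested genes passed. The stricter filter left out Hyal2. Each measured gene had 1 probe set with its symbol alone, so no other probe set could be tried. Signal near the detection level limits the size of the Acan differences, and of the overload differences of Has1 and Has2, whose untreated means lie only a little above it.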
